A study of Rattus norvegicus with 6 samples.

Results

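Nos2, Ptgs2, Sod2 and Hmox1 are enzymes that cells raise under inflammatory or oxidative stress, and their transcripts were followed here in rat oligodendrocyte precursor cells given shRNA against VCAM1. The 4 features were chosen by their rat Ensembl gene identifiers, out of 20174 gene features on each array. They were chosen on measured values: earlier results of the contrast between the shRNA groups, the lower Nos2 signal among them, were known. The difference between the groups is therefore given for all 4 as a description, with no p, and its size or rank is no evidence beyond that choice. All 4 identifiers were found on every array, each with 1 spot, and all 4 were detected on all 6 arrays. The pairing of identifier and gene name comes from the rule that chose them. The array files carry no gene names, and 0 of the 20174 identifiers were found in the RefSeq gene table, so the pairing could not be checked against a second source.

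The cells were prepared from the brains of rat embryos at embryonic day 15 and grown in modified Raff medium, as a primary culture of a proliferating precursor and not a cell line. In one group the cells received shRNA against VCAM1, an adhesion molecule of the immunoglobulin family, and in the control group shRNA against luciferase, an insect enzyme that rat cells do not have. RNA was taken 20 h later. There were 3 arrays per group, numbered 1 to 3 in both, and the numbers are used here as pairs. No feature could be identified as Vcam1 by name, so the knockdown itself was not checked, and the treated group is called the arrays labelled VCAM1 shRNA.

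The 4 enzymes carry out different reactions. Nos2 is the inducible nitric oxide synthase, which makes nitric oxide from L-arginine and is switched on mainly at transcription, by cytokines and bacterial products acting through factors such as NF-κB. Ptgs2 is the inducible cyclooxygenase, the entry step from arachidonic acid to prostaglandins. Sod2, the manganese superoxide dismutase of the mitochondrial matrix, converts superoxide to hydrogen peroxide, and so removes the partner with which nitric oxide forms peroxynitrite. Hmox1 is the inducible heme oxygenase, which opens heme to biliverdin, carbon monoxide and iron and is a standard target of the oxidative stress factor Nrf2. In brain tissue Nos2 and Ptgs2 are best known from activated microglia and astrocytes, and oligodendrocyte precursors are known to be sensitive to oxidative injury.

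Nos2 signal on the arrays labelled VCAM1 shRNA was about 51.1% of the control level, or a log2 difference of -0.97. It was -0.50 in a setting added after seeing the data. That setting subtracted the local background of each spot and then scaled each array again, and it is called local background subtracted below. Its feature, ENSRNOG00000011023, had normalized signals (linear scale, median of the detected features set to 25 on each array) of 232.8, 202.2 and 303.6 on control arrays 1, 2 and 3. Under VCAM1 shRNA the signals were 132.8, 100.7 and 142.3 on arrays 1, 2 and 3. Every control array lay above every array labelled VCAM1 shRNA, and the lowest control signal was 1.42 times the highest signal of the other group. The mean was 246 ± 52.0 (SD, n = 3) with luciferase shRNA and 125 ± 21.8 (SD, n = 3) with VCAM1 shRNA. The log2 difference of the group means (VCAM1 shRNA minus luciferase shRNA) was -0.97, with a standard error of 0.26 from limma. The SD within groups on the same scale was 0.30 with luciferase shRNA and 0.26 with VCAM1 shRNA. Since Nos2 was chosen with this difference known, its size against that spread is not a test.

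Nos2 was lower in each pair, by similar amounts in the normalized signals. With the local background subtracted and each array scaled again, the amounts were unequal (-0.20, -0.34 and -0.95). The parts of the subtraction and of the new scaling in this were not separated. The normalized signals gave a log2 difference of -0.81 in pair 1, -1.01 in pair 2 and -1.09 in pair 3. All features together also shifted between the arrays of a pair: their median log2 difference was 0.28 in pair 1, 0.18 in pair 2 and -0.27 in pair 3. Set against that median, Nos2 was lower by a log2 value of -1.09 in pair 1, -1.19 in pair 2 and -0.82 in pair 3. Pair 3, with the widest plain difference for Nos2, thus showed the smallest difference once the general shift of its arrays was taken off.

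Hmox1 was lower by an even amount in the normalized signals, but not with the local background subtracted, where the pairs gave -3.14, -1.47 and 0.15 and the group difference was -1.48. The feature ENSRNOG00000014117 had signals of 1645, 1811 and 1490 with luciferase shRNA (arrays 1 to 3), against 1278, 1434 and 1179 with VCAM1 shRNA. The groups did not overlap, but the gap was narrow, the lowest control array being 1.04 times the highest array of the other group. The means were 1649 ± 160 (SD, n = 3) and 1297 ± 128 (SD, n = 3), so that the level under VCAM1 shRNA was 78.7% of control on the log2 average. The log2 difference was -0.35 with a standard error of 0.22 from limma, against an SD within each group of 0.14. In the 3 pairs it was -0.36, -0.34 and -0.34. Relative to the median of all features, the same pairs gave -0.65, -0.52 and -0.064. In pair 3, Hmox1 was therefore close to the typical feature of its arrays, and 39.9% of all features had a difference as low or lower there.

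**Figure D1:**
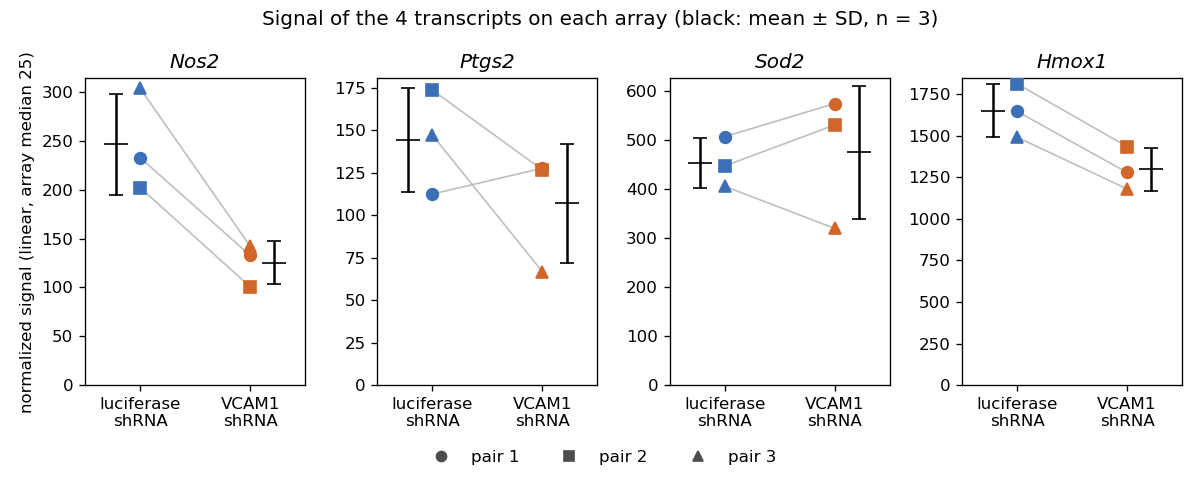
Normalized signal (linear, array median 25) of Nos2, Ptgs2, Sod2 and Hmox1 on each array. Symbols mark the pair, grey lines join same-numbered arrays, and black bars give the mean ± SD (n = 3). For Nos2 and Hmox1 every control array lies above every array labelled VCAM1 shRNA, and for Ptgs2 and Sod2 the groups overlap.

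Ptgs2 had no common direction over the pairs in the normalized signals. It was below 0 in all 3 once the median of all features was taken off. The same was so with the local background subtracted (-0.032, -1.10 and -0.64). Signals of its feature, ENSRNOG00000002525, were 112, 174 and 147 with luciferase shRNA (arrays 1 to 3), against 128, 127 and 66.8 with VCAM1 shRNA. The groups overlapped, since control array 1 lay below arrays 1 and 2 of the other group. Means of 144 ± 30.7 (SD, n = 3) and 107 ± 34.9 (SD, n = 3) gave a log2 difference of -0.47 with a standard error of 0.32 from limma, close to the pooled SD within groups of 0.44. From pair to pair the log2 difference went from 0.18 in pair 1 to -0.45 in pair 2 and -1.14 in pair 3. After the median of all features was taken off, it was -0.10, -0.64 and -0.87. Without array 3 labelled VCAM1 shRNA the log2 difference was -0.16, but the median of all features then rose from 0.064 to 0.25.

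Sod2 gave almost the same mean in both groups. The feature ENSRNOG00000019048 had signals of 507, 447 and 406 with luciferase shRNA (arrays 1 to 3), against 574, 531 and 320 with VCAM1 shRNA. Arrays 1 and 2 labelled VCAM1 shRNA were above all control arrays, and array 3 was below all of them. The means were 453 ± 50.9 (SD, n = 3) and 475 ± 136 (SD, n = 3), and the log2 difference was 0.028 with a standard error of 0.28 from limma. That difference was smaller than its error and than the pooled SD within groups of 0.34. The pairs gave 0.18, 0.25 and -0.34, which follow the general shift of each pair. Relative to the median of all features they came to -0.10, 0.064 and -0.069. Without array 3 labelled VCAM1 shRNA the log2 difference was 0.29, beside a median of 0.25 over all features. Without array 1 labelled VCAM1 shRNA it was -0.13, beside a median of -0.035.

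**Figure D2:**
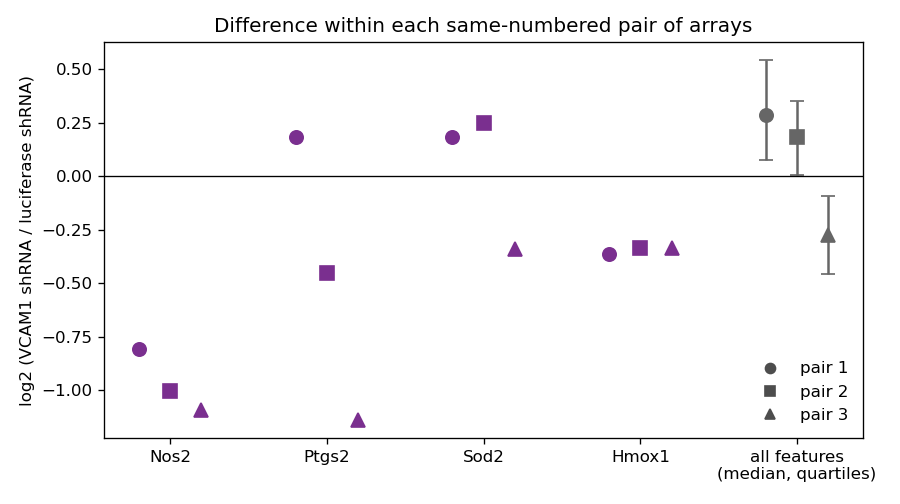
Log2 ratio of VCAM1 shRNA to luciferase shRNA within each same-numbered pair of arrays, for the 4 transcripts and, in grey, the median and quartiles of the 16141 features tested. Nos2 is lower in all 3 pairs (-0.81, -1.01 and -1.09), Hmox1 by about the same amount in each (with local background subtracted, -3.14, -1.47 and 0.15), and Sod2 moves with the median of all features.

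For 2 of the 4 genes, Ptgs2 and Sod2, the RefSeq promoter table held the sequence before the transcription start. The 250 bases upstream of both are shown, and Sod2 is the one whose signal followed the arrays in general. Capitals mark a motif that was searched for and found. The Ptgs2 window lies at chr13:64713813-64714062 on the plus strand and the Sod2 window at chr1:50050169-50050418 on the minus strand, both of build GRCr8, and each is written 5′ to 3′ along the gene.
Ptgs2: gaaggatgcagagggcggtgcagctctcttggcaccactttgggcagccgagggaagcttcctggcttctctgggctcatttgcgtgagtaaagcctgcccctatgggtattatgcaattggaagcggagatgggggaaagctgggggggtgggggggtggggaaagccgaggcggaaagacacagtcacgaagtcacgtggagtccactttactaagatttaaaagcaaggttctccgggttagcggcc
Sod2: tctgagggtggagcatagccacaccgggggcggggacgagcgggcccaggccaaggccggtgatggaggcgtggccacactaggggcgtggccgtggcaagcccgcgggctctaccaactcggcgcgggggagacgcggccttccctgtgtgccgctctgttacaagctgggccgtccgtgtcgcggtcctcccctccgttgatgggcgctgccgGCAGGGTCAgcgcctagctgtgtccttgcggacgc

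The Sod2 window was 71.6% G or C and held 26 CG dinucleotides, more than 91.4% of the 33465 promoters searched. The Ptgs2 window was 57.2% G or C with 10 CG dinucleotides, against medians of 51.2% and 5 over all promoters. Both strands were searched for the motifs named here. The antioxidant response element (TGACNNNGC) was found 1 time in Sod2, on the opposite strand 35 to 27 bases before the start, and it occurs in 10.1% of all promoters. No match was found in either window for the NF-κB consensus (6.33% of all promoters), the interferon regulatory element GAAANNGAA (8.12%), the AP-1 site TGANTCA (6.34%), the cAMP response element TGACGTCA (1.59%) or the TATA box TATAAA (12.9%). The GAS motif TTCNNNGAA (7.67%) also had no match in either window. A match or its lack describes these letters in this window only.

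As a group, 3 of the 4 transcripts had a lower mean log2 signal with VCAM1 shRNA, as did 36.0% of all 16141 features detected on at least 3 arrays. Sod2, the exception, turned negative in the mean (-0.37 and -0.25) when local background was used. With plain subtraction its pairs were -1.29, 0.26 and 0.28, so it was higher in 2 of 3 pairs and pair 1 set the sign of the mean. In the normalized signals the median log2 difference of the 4 was -0.41, with a range from -0.97 to 0.028, beside a median of 0.064 over all 16141 features. For 2 of the 4, Nos2 and Hmox1, the shRNA groups did not overlap and VCAM1 shRNA was the lower one, as was so for 2.04% of all features. The same 2 were lower in all 3 pairs, as were 7.04% of all features. Because earlier results of this contrast were known when the genes were picked, nothing is read from these counts. In the limma fit over all features with Benjamini-Hochberg adjustment, 0 of 16141 features (0%) had an adjusted p below 0.05. At an unadjusted p below 0.05 in limma there were 286 features, or 1.77%. That is below the share of 0.05 that this threshold passes when no feature differs. The fit does not take the shared shift of each pair into account. Without array 3 labelled VCAM1 shRNA there were 1357 such features, but the median log2 difference of all features was then 0.25. With the replicate number as a block in limma, 20 features (0.124%) passed the adjusted threshold and 874 had an unadjusted p below 0.05. These counts describe all features and are not used as a test of the 4.

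**Figure D3:**
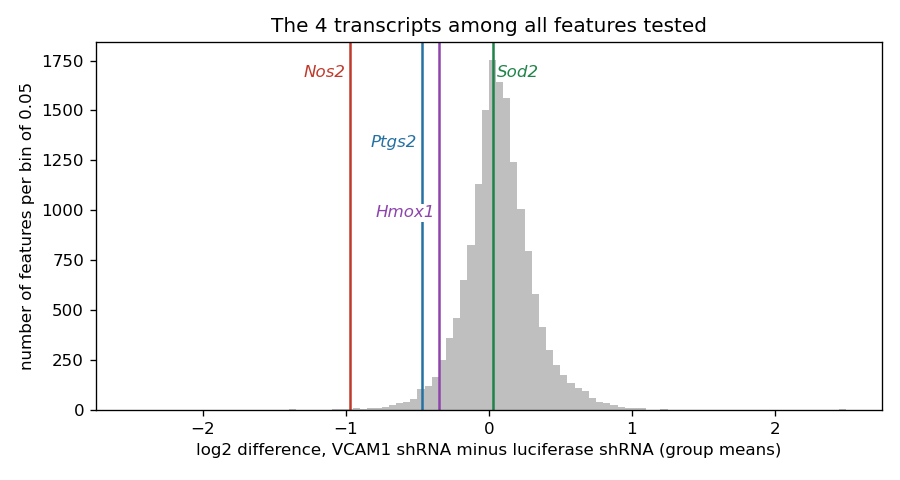
Distribution of the log2 difference of group means (VCAM1 shRNA minus luciferase shRNA) over the 16141 features tested, in bins of 0.05, with the 4 transcripts as vertical lines; 5 features beyond 2.5 are drawn in the last bin. Nos2 stands at -0.97 in the thin left tail, Ptgs2 and Hmox1 on the left flank at -0.47 and -0.35, and Sod2 near the centre at 0.028.

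The 4 transcripts also differed in how far replicates spread. With luciferase shRNA the SD of the log2 signal was 0.30 for Nos2, 0.32 for Ptgs2, 0.16 for Sod2 and 0.14 for Hmox1, beside a median of 0.23 over the 14201 features detected on all arrays. With VCAM1 shRNA the SD was 0.26 for Nos2 and 0.14 for Hmox1, below the median of 0.35, and 0.54 for Ptgs2 and 0.46 for Sod2, above it. The spread of Ptgs2 and Sod2 in that group came with array 3, the lowest of the 3 for both genes. That array also had the fewest features detected, 14701, where the other 5 had between 15723 and 17068.

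Across the 6 arrays the profiles of the 4 transcripts were not alike. Pearson's r of log2 signals was highest for Ptgs2 with Hmox1 (0.74) and for Ptgs2 with Sod2 (0.55), and it was 0.52 for Nos2 with Hmox1, 0.33 for Nos2 with Ptgs2 and -0.26 for Nos2 with Sod2. These are descriptions over 6 arrays that share the group difference and the shift of each pair. Taking each group's mean off, r was 0.70 for Ptgs2 with Sod2, 0.62 for Ptgs2 with Hmox1 and 0.59 for Sod2 with Hmox1. For Nos2 it was -0.45 with Ptgs2, -0.49 with Sod2 and -0.98 with Hmox1. In the normalized signals, the array of a group with more Nos2 had less Hmox1, although both were lower under VCAM1 shRNA. With the local background subtracted this order was not kept. Array 3 labelled VCAM1 shRNA then had the most Nos2 (466) and the most Hmox1 (2440) of its group. Few features ran parallel to Nos2. Of 14200 others detected on all arrays, 3 had r above 0.95 with it, compared with 27 for Hmox1, 52 for Ptgs2 and 581 for Sod2. The features closest to Nos2 were ENSRNOG00000000455 (r = 0.98) and ENSRNOG00000020063 (r = 0.98), for which no gene name is at hand.

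The spots of the 4 genes were far above the detection limit. Nos2 signals were between 142 and 381 times the detection limit of their array, Ptgs2 between 81.3 and 229, Sod2 between 390 and 769, and Hmox1 between 1437 and 2391. None of these spots was marked by the scanner software. The brightness measured around a spot, its local background, was not small and varied between spots of 1 array. On control array 1 it was 17.6 around Ptgs2, 168 around Nos2, 235 around Sod2 and 2272 around Hmox1, in scanner units. The blank spots of that array had a mean of 17.5. The spot medians there were 297 for Ptgs2, 596 for Nos2, 1277 for Sod2 and 4105 for Hmox1, in the same order. On every array Hmox1 had both the brightest spot of the 4 and the highest local background. Why the local background differed between spots was not tested. Whether it holds part of the spot's own signal, which subtraction would then remove, was not tested either. Relative to the spot median, local background ranged from 8.17% to 66.5% for Nos2, from 5.93% to 85.1% for Ptgs2, from 18.4% to 80.1% for Sod2, and from 44.2% to 96.4% for Hmox1. It was higher around the Nos2 spot on the control array of every pair, at 168 against 21.7, 322 against 119 and 326 against 73.3 in scanner units.

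The deposited normalized values do not use this local background. The size of the differences changed when it was subtracted and each array scaled again. Nos2 was then still lower in each pair, with the smallest difference in pair 1. That order belongs to the subtraction and the scaling together, which were not separated. For Hmox1, as given above, the direction turned in pair 3 and the group difference became larger than that of Nos2. Ptgs2 showed -0.032, -1.10 and -0.64 in the 3 pairs and -0.59 for the groups. Over all detected features, local background had a median of 55.1% to 85.3% relative to the spot, depending on the array, so for many features this correction leaves a small remainder of a large value.

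**Figure D4:**
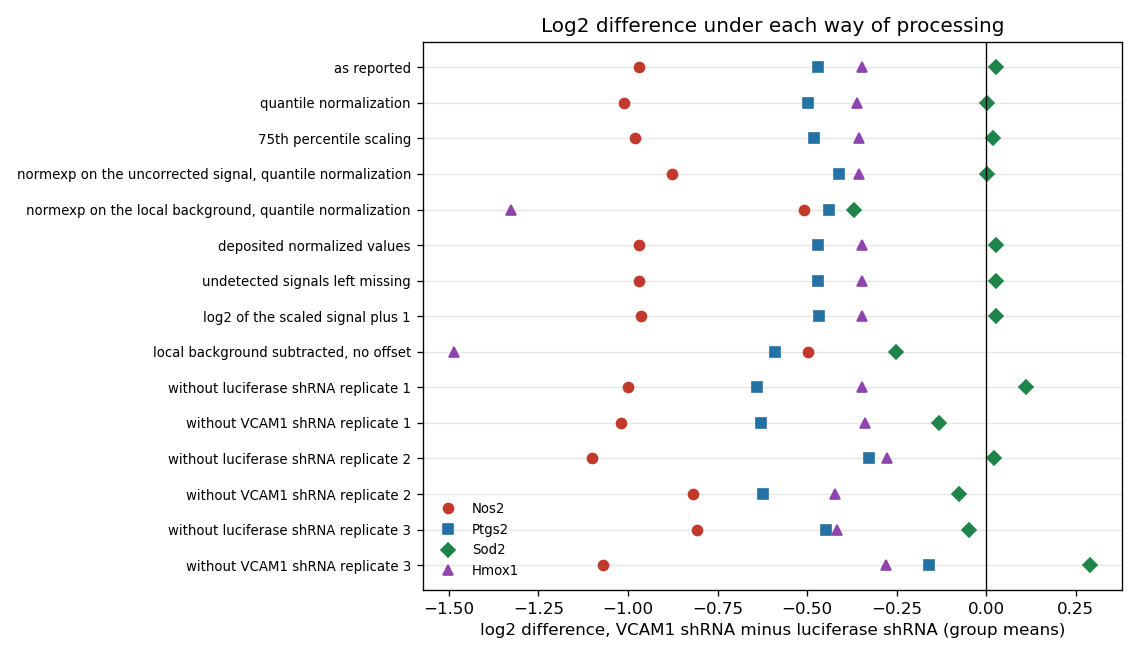
Log2 difference of group means for the 4 transcripts as reported and under each other way of processing or with 1 array left out. Nos2, Ptgs2 and Hmox1 stay below 0 throughout, Nos2 between -1.10 and -0.50, and Sod2 lies on both sides of 0; the settings that use the local background move Hmox1 to -1.33 and -1.48.

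RNA of whole cultures was measured, so fewer cells of a kind and less RNA per cell cannot be told apart. Markers of microglia, astrocytes and other cells that may accompany precursor cultures could not be looked up without gene names, and the part of such cells in the Nos2 signal was not tested. The other genes of nitric oxide, prostaglandin, superoxide and heme metabolism were not analysed here for the same reason.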

How the data were processed

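Total RNA of 6 cultures was labelled with Cy5 as amplified RNA and hybridized to one-colour Toray 3D-Gene chips (rat oligo chip 20k), 1 per culture. The authors deposited scanner intensity values (spot median and local background at 635 nm, not normalized) and a table of normalized intensities scaled to a median of 25, whose background step is not given in the sources used here. From the spot medians, the mean of 5808 blank spots (lowest and highest 5% left out) was subtracted. Spots above that mean by 2 SD and not marked by the scanner were taken as detected and scaled to a median of 25, undetected ones were set to the lowest detected signal, and log2 was taken. The result differed from the deposited intensities by at most 0.18%, and detection calls by at most 14 features per array. The scale is thus known, and higher values are brighter spots.

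Features detected on at least 3 arrays (16141) were compared with limma 3.58.1 in R 4.3.3 (lmFit, eBayes, Benjamini-Hochberg, threshold 0.05), a step tested on made data with known differences. The made arrays were drawn independently, so the fit was not tested for arrays of the same number that deviate together. After each group's mean was taken off, arrays with the same number correlated over features at 0.70, 0.63 and 0.51. Arrays with different numbers were not compared in this way, so the pairing rests on the labels. The standard errors given for the 4 genes come from the fit without the replicate block. Nothing says whether the cultures came from separate animals. Arrays 1 of both groups had lower blank means (17.5 and 13.9) than the others (38.4 to 39.7), a difference that lies between pairs. The number of arrays limits precision. Alternatives were other normalizations and background corrections, the deposited values, detection filters, the replicate block, other tests and leaving out each array. Plain subtraction of the local background was added after seeing the data. The 4 genes, the lists and the alternatives were chosen with earlier results of these data known. The genes to be named were the 4, Vcam1, genes of 6 pathway lists and 6 cell type marker lists, and the features most like each of the 4. Of these, only the 4 could be named, so the lists, the markers and Vcam1 were not analysed here, and 2 features without a name were added for likeness to Nos2. Figures were drawn with matplotlib 3.10.9.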

Additional observations from a re-analysis of the deposited data

How the results depend on the processing

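Over 15 alternatives the log2 difference of Nos2 lay between -1.10 and -0.50, that of Ptgs2 between -0.64 and -0.16 and that of Hmox1 between -1.48 and -0.28, and none of these 3 changed sign. Sod2 lay between -0.37 and 0.29 and changed sign under 5 of them. Not all of the 15 could move these differences. The replicate block and leaving undetected signals missing gave the same values, and the deposited intensities almost the same. The values that moved by more than the SD within groups all came from settings that use the local background. These settings also normalize the arrays anew. With normexp on the local background, then quantile normalization, Nos2 was at -0.51, Sod2 at -0.37 and Hmox1 at -1.33. With plain subtraction and new scaling, chosen after seeing the data, Nos2 was at -0.50 and Hmox1 at -1.48. With 1 array left out, Nos2 lay between -1.10 and -0.81, Ptgs2 between -0.64 and -0.16, Sod2 between -0.13 and 0.29, and Hmox1 between -0.42 and -0.28. Why these values moved (the cause) was not tested.

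Of 19 alternatives for the counts over all features, 2 gave any feature with an adjusted p below 0.05 in limma: the replicate block gave 20, and normexp run without the local background gave 3. Under the methods' t-test 0 features passed after Benjamini-Hochberg adjustment, and 362 (log2 signals) or 353 (unlogged signals) had an unadjusted p below 0.05. The count at an unadjusted p below 0.05, 286 as reported, rose to 874 with the replicate block, to 838 with that normexp and to 650 with quantile normalization. Leaving out 1 array moved it to between 166 and 1357: 166 without control array 2, 182 without array 2 labelled VCAM1 shRNA and 1357 without array 3 labelled VCAM1 shRNA. In that last setting the median log2 difference of all features was 0.25, against 0.064 as reported. The block leaves the differences of the 4 genes as they are (-0.97 for Nos2). Tests of pathway lists and the check of Vcam1 were not run, since the features carry no gene names.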
